A study of Bos taurus and Bos grunniens and Bubalus bubalis with 15 samples.

Results

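NAMPT and NMRK2 are the enzymes that start routes by which skeletal muscle turns forms of vitamin B3 into NAD, and both were measured here in back muscle of 3 bovid species. All probe sets (groups of short probes that read 1 transcript) annotated to either gene were taken, which gave 3 of the 24128 on the array, 2 for NAMPT and 1 for NMRK2, so 2 of the 9156 genes that the platform annotation names. The genes were chosen from differences already seen on these same arrays, so their values are given as a description, with no test. All 3 probe sets passed the filter on dim signal.

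Longissimus dorsi, a muscle that runs along the spine, was sampled at slaughter from 15 animals aged 36 months, in 5 groups of 3. The groups were water buffalo from Guangxi (Bubalus bubalis), yak from Qinghai (Bos grunniens), and females, castrated males and intact males of Qinchuan cattle (Bos taurus). The cattle were of 1 breed, born close together and reared alike, and the labels name no transgene or drug in any group. The sources used here give neither the sex of the yak and buffalo nor the age at castration. Each animal was read on 1 bovine Affymetrix array, so in yak and buffalo a lower transcript level and weaker binding to probes of cattle sequence cannot be told apart. In such bulk tissue, fewer cells of a type and less RNA per cell cannot be told apart either.

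NAD carries electrons from glycolysis, fatty acid oxidation and the citric acid cycle, and is also used up by sirtuins, poly(ADP-ribose) polymerases and other enzymes that release nicotinamide. NAMPT (nicotinamide phosphoribosyltransferase) turns that nicotinamide into nicotinamide mononucleotide, the rate-limiting step of salvage in mammals. NMRK2 (nicotinamide riboside kinase 2, earlier ITGB1BP3) makes the same mononucleotide from nicotinamide riboside. In mice and humans it is found mainly in skeletal muscle, and in mice it rises in the failing heart. NMNAT enzymes complete both routes by joining the mononucleotide to AMP. No sequence of these genes or their probes is printed here.

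With 16 added to each intensity before log2, the medians of the 15 arrays ran from 6.71 to 6.81. Precision is limited by the number of arrays. Of 10 muscle fibre markers, 8 had a probe set and 8 were above the filter, with summed intensities of 72427 to 98924 on the cattle arrays. Actin probe sets at the 3' and 5' end, whose ratio grows as RNA breaks down, gave ratios of 1.42 to 1.73 in buffalo, 1.49 to 1.93 in yak, 1.22 to 1.33 in females, 1.24 to 1.27 in castrated males and 1.17 to 1.48 in intact males. Intact male 1 had the highest of the cattle ratios and the lowest fibre marker sum. The same ratio for GAPDH probe sets was 1.22 to 1.5 in buffalo, 1.2 to 1.26 in yak and 1.13 to 1.34 in intact males. It was 1.17 to 1.2 in females and 1.17 to 1.19 in castrated males. Per the labels the 3 arrays of each group are biological replicates.

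NAMPT was higher in castrated than in intact males by both of its probe sets. By the brighter probe set the castrated males had intensities of 2099.8, 2333.5 and 2421.7, and the intact males 734.2, 731.1 and 1073.4. Every castrated male stood above every intact male. The means were 2285 ± 166 in castrated and 846.2 ± 197 in intact males (SD, n = 3 each), a log2 fold change of 1.44 (SE 0.23), or 2.71-fold. By the dimmer probe set the castrated males had 211.6, 159.3 and 283.2 and the intact males 99.1, 97.4 and 95.9. The groups again did not overlap, and the intact males lay almost on 1 value while the castrated males were spread. The log2 fold change was 1.01 (SE 0.23), or 2.01-fold. Of all 14409 probe sets tested, 11.3% were higher in castrated males with no overlap. The groups entered the choice of the gene, so nothing is read from this share.

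Females stood between the other cattle groups by the brighter NAMPT probe set, and were the most variable of the 3. Their intensities were 2146.7, 1212.8 and 1492.8, so female 1 lay among the castrated males and females 2 and 3 below them. All 3 females were above all intact males by both probe sets, where 15.7% of probe sets were higher in females without overlap. The log2 fold change of females over intact males was 0.91 (SE 0.23) by the brighter and 0.80 (SE 0.23) by the dimmer probe set. In the dimmer probe set the females had 255.0, 146.6 and 160.4, with female 1 again the highest. Against castrated males the female log2 fold change was -0.53 (SE 0.23) and -0.21 (SE 0.23), with overlapping groups in both cases, where 17.5% of probe sets did not overlap. It was -0.35 by the brighter probe set without female 2 and -0.75 without female 1.

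NMRK2 differed among the cattle groups by less than the spread within them. Its intensities were 4067.3, 8082.6 and 5957.1 in females, 5510.6, 4458.3 and 8709.8 in castrated males, and 4014.8, 6995.5 and 5215.5 in intact males. The 3 groups overlapped, with the lowest value in an intact male and the highest in a castrated male. The log2 fold change was 0.18 (SE 0.31) for castrated over intact males, 0.14 (SE 0.31) for females over intact males and -0.04 (SE 0.31) for females over castrated males. Leaving out 1 array took these values to between -0.09 and 0.39, -0.10 and 0.40, and -0.28 and 0.23. Over the 9 cattle arrays, which are of 1 breed, NMRK2 and the brighter NAMPT probe set had a Pearson correlation of 0.02 and a Spearman correlation of 0.12, as a description.

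**Figure D1:**
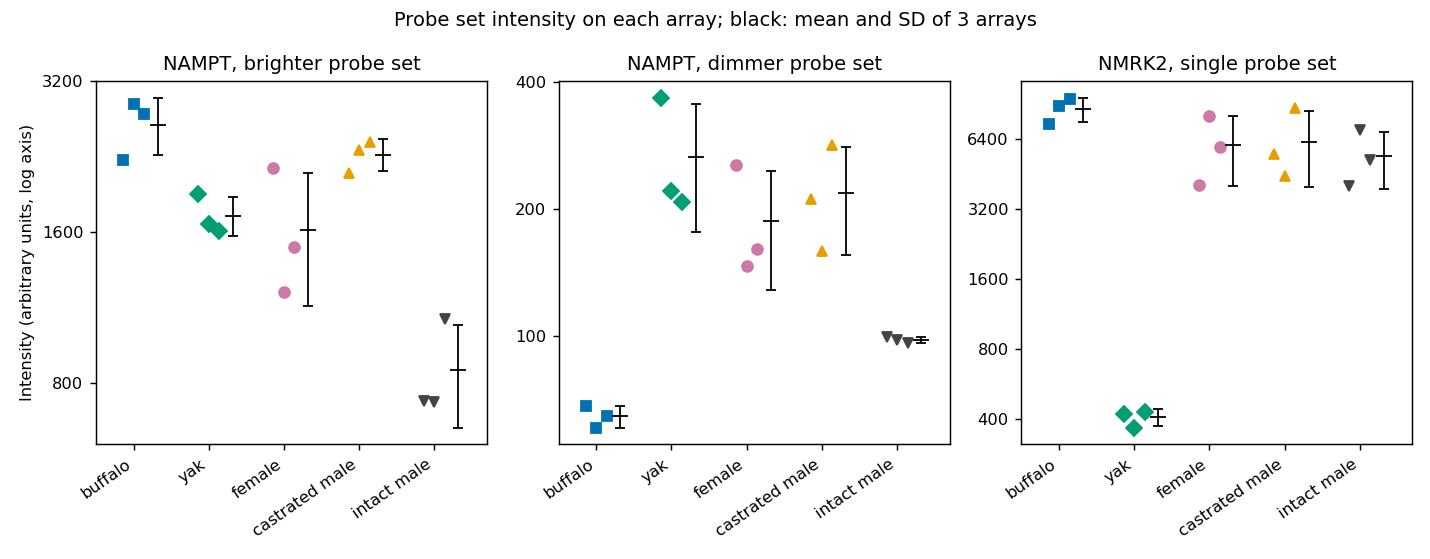
Intensity of the 3 probe sets of NAMPT and NMRK2 (log axes, arbitrary units) on each of 15 arrays, by group; the black mark and bar beside each group are its mean and SD over 3 arrays. Castrated males lie above intact males in both NAMPT panels, buffalo lie high in the first NAMPT panel and lowest in the second, and yak lie far below all other groups for NMRK2, at 367.8 to 432.0.

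NMRK2 was far lower in yak than in any other group. The 3 yak had intensities of 423.5, 367.8 and 432.0, close to each other, while the 9 cattle ran from 4014.8 to 8709.8 with a median of 5510.6. The yak and cattle ranges were wide apart, and 10.4% of probe sets were lower in yak without overlap. The means were 407.8 ± 34.9 in yak (SD, n = 3) and 5890 ± 1713 in cattle (SD, n = 9), and the log2 fold change was -3.75 (SE 0.22). In linear terms the yak level was 0.0742 of the cattle level, and only 2 of the 14409 probe sets had a more negative log2 fold change. Leaving out 1 array at a time gave -3.84 to -3.66, and against castrated males and females alone the value was -3.81 (SE 0.23). A single probe set reads NMRK2 on this array, so no other NMRK2 probe set bears on this value.

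Buffalo had the highest mean NMRK2 level. Their intensities were 7467.5, 8892.5 and 9528.2, and castrated male 3, at 8709.8, and female 2, at 8082.6, lay within that range. The log2 fold change over cattle was 0.59 (SE 0.22), or 1.51-fold. Over yak it was 4.35 (SE 0.27), or 20.3-fold, the largest of the 14409 in that comparison. Of all probe sets, 26.7% were higher in buffalo than in yak without overlap. By mean level the order for NMRK2 was buffalo, castrated males, females, intact males and yak. Only the last step, from intact males to yak, was without overlap and larger than the sum of the 2 groups' SDs on the log2 scale (3.64 against 0.52). The share of all probe sets without overlap was not counted for that pair.

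For NAMPT the 2 probe sets differed in sign in buffalo, where the dimmer one had a mean of 6.33 on the log2 scale, under the filter level of 6.42. That probe set passed the filter through the other groups. By the brighter one, buffalo had 2230.4, 2888.2 and 2752.9, against 731.1 to 2421.7 in the 9 cattle. Buffalo 2 and 3 lay above every cattle array and buffalo 1 within the castrated male range, and the log2 fold change was 0.85 (SE 0.16). By the dimmer one, buffalo had 68.0, 60.4 and 64.4, against 95.9 to 283.2 in cattle. All 3 buffalo lay below every cattle array there, where 18.3% of probe sets were lower without overlap, and the fitted log2 fold change was -1.11 (SE 0.19), a value set against dim signal in buffalo. With both probe sets averaged it was -0.13. Against castrated males and females alone, the values were 0.46 (SE 0.17) and -1.41 (SE 0.20). The sign for NAMPT in buffalo differs between the probe sets, and the dimmer one gives no firm size there.

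Yak NAMPT lay within the range of cattle by the brighter probe set. The yak had 1902.2, 1663.3 and 1608.1, below all castrated males and above all intact males. The share of all probe sets without overlap was not counted for either pair. Their log2 fold change over cattle was 0.25 (SE 0.16), and over castrated males and females alone -0.14 (SE 0.17), since the low intact males pull the cattle mean down. By the dimmer probe set the yak had 367.8, 221.2 and 207.2, with yak 1 above every cattle array, and a log2 fold change of 0.66 (SE 0.19). Buffalo over yak came to 0.60 (SE 0.20) by the brighter and -1.77 (SE 0.23) by the dimmer probe set, in both cases without overlap, the second again with buffalo at dim signal. In that comparison 28.5% of probe sets were lower in buffalo without overlap.

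By mean level the brighter probe set put NAMPT in the order buffalo, castrated males, yak, females and intact males. Buffalo and castrated males overlapped, as did yak and females. Castrated males against yak (a log2 difference of 0.40) and females against intact males (0.91) did not overlap. Both differences exceeded the sum of the SDs of the groups compared. In females over intact males 15.7% of all probe sets were higher without overlap, and for castrated males against yak no such share was counted. The dimmer probe set put yak first, then castrated males, females, intact males and buffalo, with the first 3 overlapping. Across the 9 cattle arrays the 2 probe sets had a Pearson correlation of 0.89 and a Spearman correlation of 0.85, and across all 15 arrays 0.11 and -0.04. The points share their group, so these figures are descriptions.

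**Figure D2:**
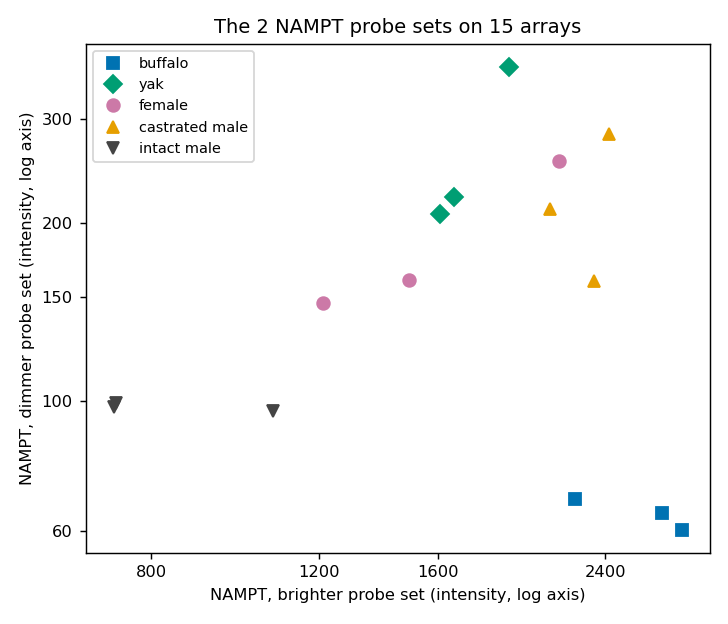
Intensity of the dimmer NAMPT probe set (vertical, log axis) against the brighter one (horizontal, log axis) on 15 arrays, 1 point per array, marked by group. The cattle and yak arrays run from low on both to high on both, while the 3 buffalo arrays stand at 2230.4 to 2888.2 on the horizontal and 60.4 to 68.0 on the vertical axis.

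**Figure D3:**
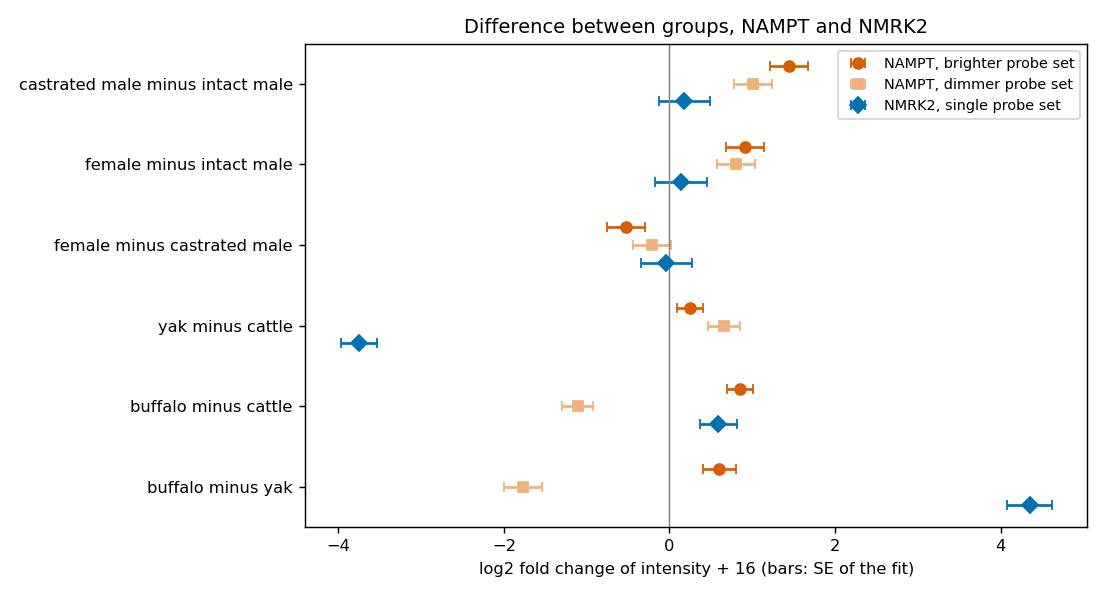
Log2 fold change of intensity with 16 added, for 6 comparisons and the 3 probe sets of NAMPT and NMRK2; bars are the SE of the linear model. The NAMPT probe sets lie on the same side of 0 in every comparison without buffalo and on opposite sides in both with buffalo, whose dimmer signal lies under the filter level, and NMRK2 lies at -3.75 for yak over cattle and near 0 in the 3 cattle comparisons.

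The rest of the salvage route was tested with limma over all probe sets. Of the other 8 salvage genes on the list, 4 had a probe set and all 4 were tested. In yak 3 of 4 fell, against 15.9% of all probe sets (13.2% rose). PNP, purine nucleoside phosphorylase, which can split nicotinamide riboside, averaged 693 ± 141 in yak and 2777 ± 327 in cattle (log2 fold change -1.99, SE 0.15, limma adjusted p = 2.09e-06). SLC29A1, a nucleoside transporter of the cell membrane, fell by 0.98 on the log2 scale (SE 0.21, limma adjusted p = 0.00359). NMNAT1, the nuclear enzyme that makes NAD from the mononucleotide, fell by 0.53 (SE 0.14, limma adjusted p = 0.0128). NT5E, an ecto-nucleotidase, had a log2 fold change of -0.24 (SE 0.14) and did not pass.

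In buffalo, PNP fell as well, with 917 ± 204 (log2 fold change -1.60, SE 0.15, limma adjusted p = 2.19e-06), and NT5E fell by 0.36 (SE 0.14, limma adjusted p = 0.0433). Against castrated males and females alone the NT5E call was lost, at -0.13 (SE 0.15, limma adjusted p = 0.493). NT5E averaged 79.4 ± 5.25 in females and 78.7 ± 17.8 in castrated males, against 140 ± 43.4 in intact males. NMNAT1 and SLC29A1 did not pass there, at 0.08 (SE 0.14) and 0.22 (SE 0.21). These 2 of 4 stand beside 28.4% of all probe sets lower and 23.0% higher in buffalo than in cattle. The yak and buffalo comparisons share the same cattle arrays. Between the species, NMNAT1 and SLC29A1 rose in buffalo over yak, by 0.61 (SE 0.17) and 1.20 (SE 0.25) on the log2 scale, where 19.5% of all probe sets rose and 22.7% fell. Thus for SLC29A1 the yak had 605 to 798 and the buffalo 1396 to 1695, with buffalo above yak as for NMRK2.

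The other routes and fates of NAD gave scattered calls. AOX1, an aldehyde oxidase that degrades nicotinamide metabolites, fell in yak to 544 ± 15.1, against 1239 ± 244 in cattle (log2 fold change -1.14, SE 0.17, limma adjusted p = 0.000433). It was the 1 of 3 listed disposal genes that could be tested, and in buffalo it stood at -0.01 (SE 0.17). NAPRT and NADSYN1, which make NAD from nicotinic acid, and IDO1, which opens the route from tryptophan, were the 3 of 12 other synthesis genes bright enough to test. None of them passed in yak or buffalo against cattle (unadjusted p under 0.05 for 1 and 1), and IDO1 rose in buffalo over yak, at 0.56 (SE 0.16). A second NADSYN1 probe set fell in yak, at -0.36 (SE 0.09), while the one used had -0.31 (SE 0.17).

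Among 7 tested genes of NAD phosphorylation, repair and transport, 4 rose and 1 fell in buffalo, beside 51.4% of all probe sets either way. In yak 1 rose and 1 fell, beside 29.1%. NADK, the cytosolic NAD kinase, had a log2 fold change of 0.86 (SE 0.10) in buffalo, but its second probe set had -0.08 (SE 0.10) and did not pass. NADK2, the mitochondrial kinase, and SLC25A51, which carries NAD into mitochondria, rose in buffalo by 0.42 (SE 0.14) and 0.40 (SE 0.14), while NAXE, which repairs damaged NADH, fell by 0.35 (SE 0.12). NUDT13, a pyrophosphatase that cuts NADH, rose in buffalo by 0.30 (SE 0.09) and fell in yak by 0.81 (SE 0.09), to a dim mean of 59.9. Against castrated males and females alone, the calls of NADK2 (0.22), NAXE (-0.26) and NUDT13 (0.20) in buffalo and of NNT (0.36) in yak were lost. NNT, the transhydrogenase that moves hydride from NADH to NADP, rose in yak by 0.50 (SE 0.18), and its second probe set stood at 0.45 (SE 0.19) without passing. NUDT12, a peroxisomal pyrophosphatase, did not pass in either species, at 0.52 (SE 0.19) in yak and -0.08 (SE 0.19) in buffalo.

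Of 12 tested genes from families of enzymes that use up NAD, 2 rose and 5 fell in buffalo, beside 51.4% of all probe sets. In yak 1 rose and 1 fell, beside 29.1%. PARP1, the DNA damage polymerase, fell in buffalo by 0.55 (SE 0.10, limma adjusted p = 0.000684). SIRT1, a nuclear deacetylase, rose there by 0.46 (SE 0.14), and SIRT2 fell by 0.34 (SE 0.11). PARP11 rose in buffalo by 2.18 (SE 0.21) on the probe set used and stood at -0.11 (SE 0.13) on its second one, which in turn rose in yak by 0.69 (SE 0.13). In yak SIRT3, a mitochondrial deacetylase, rose by 0.43 (SE 0.13), with its second probe set at 0.07 (SE 0.13), and PARP9 fell by 0.49 (SE 0.13), but stood at -0.36 with no call against castrated males and females alone. SIRT7 did not pass in yak, at 0.38 (SE 0.16), while its second probe set fell by 0.22 (SE 0.07). In buffalo over yak PARP11 and PARP9 rose, and PARP1 and the mitochondrial SIRT5 fell, the last by 0.75 (SE 0.27). Over the 5 NAD lists together, 36 of 58 genes other than NAMPT and NMRK2 had a probe set and 27 were tested. In yak 2 rose and 6 fell, 8 of 27 beside 29.1% of all probe sets, and in buffalo 6 rose and 8 fell, 14 of 27 beside 51.4%. Both counts are near the background. In buffalo over yak 8 rose and 2 fell, beside 42.2%. The list medians were -0.17, 0.02 and -0.02, beside -0.02, -0.03 and 0.01 over all probe sets tested. The yak count was 4 without yak 1 or yak 2, the buffalo count 9, 7 and 6 without buffalo 1, 2 and 3, and the buffalo over yak count 5 without yak 2. Against castrated males and females alone the buffalo count was 7, beside 48.2% of all probe sets.

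**Figure D4:**
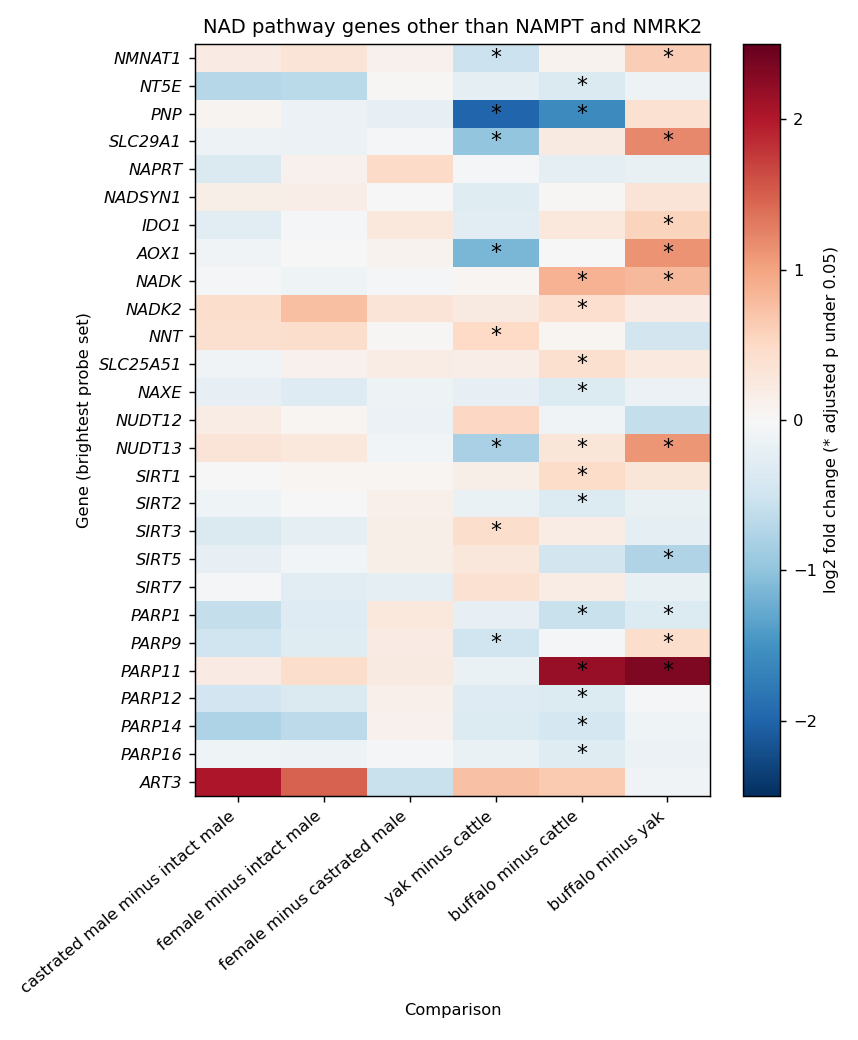
Log2 fold change (colour) of the 27 tested NAD pathway genes other than NAMPT and NMRK2 in 6 comparisons; an asterisk marks a limma adjusted p under 0.05. No gene carries an asterisk in the 3 cattle comparisons, PNP is low in both species, and SLC29A1, AOX1, NMNAT1 and NUDT13 carry asterisks in yak over cattle and buffalo over yak.

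Among the cattle groups 0 of these 27 genes passed in limma in any of the 3 comparisons. At an unadjusted p under 0.05 there were 11 for castrated over intact males, 6 for females over intact males and 2 for females over castrated males, beside 20.5%, 27.7% and 7.55% of all probe sets at that p. By adjusted p, 1.46%, 5.50% and 0.0208% of all probe sets passed. The list medians were -0.09, -0.02 and 0.08. PARP1 averaged 417 ± 16.6 in castrated and 636 ± 61.7 in intact males, a log2 fold change of -0.59 (SE 0.13, limma adjusted p = 0.0575). ART3, a mono-ADP-ribosyltransferase family member, had a log2 fold change of 2.03 (SE 0.55, limma adjusted p = 0.101). NMNAT1 and PNP stood at 0.21 (SE 0.19) and 0.06 (SE 0.14). Without intact male 3, 2 of the 27 passed for castrated and 3 for females over intact males.

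Genes known to act on NAMPT and NMRK2 in other mammals were also listed. NAMPT is a clock-driven gene in mice, and of 20 clock genes 7 had a probe set and were tested. The counts of called genes in these lists stand beside 1.46% of all probe sets for castrated and 5.50% for female over intact males, 29.1% in yak and 51.4% in buffalo. PER2, a clock repressor, fell in castrated males to 128 ± 34.9, against 368 ± 74.3 in intact males (log2 fold change -1.42, SE 0.24, limma adjusted p = 0.0301). It was the 1 called of 7, and in females it stood at -0.15 (SE 0.24) over intact males. CRY1, another repressor, rose in females over intact males by 1.02 (SE 0.25), the 1 called of 7 there. In yak PER2 rose by 0.68 (SE 0.17) and the nuclear receptor RORA by 1.66 (SE 0.24), with a second RORA probe set at 0.45 (SE 0.28). The yak PER2 range of 370 to 452 overlapped that of intact males, at 282 to 414, while castrated males had 94.6 to 164. Against castrated males and females alone both calls held, and CRY1 fell by 0.61 (SE 0.19, limma adjusted p = 0.0349). In buffalo PER2 fell by 0.65 (SE 0.17), but stood at -0.39 with no call against castrated males and females alone, and the repressor BHLHE40 by 0.98 (SE 0.29). The sources used here do not give the time of day at slaughter.

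Of 7 tested AMPK and PPAR genes, which regulate NAMPT and NMRK2 in mice, 0 passed in limma for castrated or for female over intact males, with 0 and 1 at an unadjusted p under 0.05. In buffalo 3 rose and 1 fell, among them the coactivator PPARGC1A by 1.33 (SE 0.20), which stood at 0.05 (SE 0.20) in yak. STRADA, a partner of the kinase upstream of AMPK, rose in yak by 0.31 (SE 0.09), the 1 called of 7 there. Of 11 glucocorticoid-responsive genes 0 passed for castrated over intact males (4 at an unadjusted p under 0.05). In yak 5 rose and 0 fell, where 13.2% of all probe sets rose. The 5 included the transcription factors KLF15, by 1.48 (SE 0.26), and CEBPD, by 1.92 (SE 0.35). Against castrated males and females alone 3 rose and 1 fell, FBXO32, a ubiquitin ligase of muscle wasting, at -1.52 (SE 0.41). In females over intact males FBXO32 rose by 1.58 (SE 0.34) and the metallothionein MT2A fell by 2.21 (SE 0.44). Of 10 NADH shuttle and lactate genes 0 passed in either cattle comparison with intact males (2 and 2 at an unadjusted p under 0.05). In yak 1 rose and 4 fell, beside 29.1% of all probe sets, and in buffalo 5 rose and 4 fell, beside 51.4%. LDHB, the lactate dehydrogenase of oxidative fibres, fell in yak by 1.40 (SE 0.16) and stood at -0.04 (SE 0.16) in buffalo. GOT1 and GPD1, cytosolic shuttle enzymes, and LDHA fell in both species, and GPD2, the mitochondrial partner of GPD1, rose in both, by 1.19 (SE 0.22) in yak and 1.38 (SE 0.22) in buffalo.

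NMRK2 was first described as an integrin-binding protein, and of 9 tested integrin and laminin partners 4 fell in yak (15.9% of all probe sets fell). In buffalo 1 rose and 5 fell, beside 51.4% of all probe sets either way. ITGB1BP2 (melusin), another muscle protein that binds integrin beta 1, fell in yak to 100 ± 27.4, against 259 ± 63.7 in cattle (log2 fold change -1.24, SE 0.19). It stood at 0.13 (SE 0.19) in buffalo. ILK, LAMB1 and VCL were the others that fell in yak. Against castrated males and females alone, 2 of the 4 calls held, while ILK stood at -0.21 (limma adjusted p = 0.176) and LAMB1 at -0.45 (limma adjusted p = 0.0857). VCL, or vinculin, rose in buffalo by 0.92 (SE 0.20).

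Slow fibre markers were lower in yak, as NMRK2 was, and so were most fibroblast markers and some of fat cells. Of 9 such markers 7 had a probe set, and 6 of the 7 fell in yak over cattle, where 15.9% of all probe sets fell, and 5 against castrated males and females alone. In buffalo 3 rose and 1 fell, beside 51.4% of all probe sets. MYL3, the slow and ventricular myosin light chain, averaged 369 ± 311 in yak and 5893 ± 2177 in cattle (log2 fold change -4.20, SE 0.40, limma adjusted p = 1.47e-05). MYH7, the slow myosin heavy chain, fell by 0.49 (SE 0.10). The other calls were MYL2 (-0.19), ATP2A2 (-0.26), TNNT1 (-0.53) and TPM3 (-0.64), and TNNC1 did not pass, at -0.09. MYL3 thus fell far more than the rest, and the list median was -0.49. The summed slow marker intensity was 49349 to 57677 in yak, against 64811 to 68117 in females, 70754 to 84273 in castrated males and 64673 to 76909 in intact males. The fast marker sum was 86869 to 92313 in yak, against 69029 to 98521 over the cattle arrays, and 0 of 7 tested fast markers passed in yak (0 at an unadjusted p under 0.05). Of 7 fibroblast markers 6 fell in yak, with a list median of -1.62 (-0.65 against castrated males and females alone) and sums of 4268 to 5546, against at least 8261 on every cattle array. Of 5 tested adipocyte markers 1 rose and 2 fell in yak, beside 29.1% of all probe sets either way. Their list median was -1.64. ADIPOQ and CIDEC, the 2 that fell, passed the filter through cattle. They were dim in yak, at 44.9 ± 26.4 and 35.1 ± 7.87, so their fall has no firm size. The adipocyte marker sums were 580 to 960 in yak, against 677 to 4977 over the cattle arrays. In buffalo 6 of 7 fibroblast markers fell as well, where 28.4% of all probe sets fell, with sums of 3708 to 5958. PI16, 1 of the 6 in both species, was dim there, at 45.9 ± 2.48 in yak and 46.2 ± 2.92 in buffalo. The part of fibre type and of these other cells in the NMRK2 difference was not tested. The actin 3' to 5' ratio was also higher in every yak (at least 1.49) than in any cattle array (at most 1.48). The GAPDH ratio was not, with 1.2 to 1.26 in yak, within the 1.13 to 1.34 of intact males. The part of RNA quality was not tested either. Of the 2 cardiac markers with a probe set, NPPA fell by 0.25 (SE 0.08) in yak, a call lost against castrated males and females alone (limma adjusted p = 0.0696). TNNI3, which passed the filter through buffalo, averaged 389 ± 72.5 there and was dim elsewhere, at 37.1 ± 7.05 in yak and 49.7 ± 18.4 in cattle, so no fold is given.

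Some markers of cells other than fibres differed between the same cattle groups as NAMPT, in the opposite direction: fibroblast markers were lower in castrated males and females, where NAMPT was higher, and macrophage sums were lower there too. The macrophage markers, 8 of 10 with a probe set and 8 above the filter, summed to 930 to 1420 in castrated males, and to 19567, 3594 and 2337 in intact males 1, 2 and 3. None passed in castrated males (8 at an unadjusted p under 0.05), and 4 of 8 fell in females over intact males, beside 5.50% of all probe sets called. The 7 fibroblast markers summed to 10639 to 11371 in castrated and 30470 to 39672 in intact males, and 6 of 7 fell, beside 1.46% of all probe sets called. In females, where they summed to 8261 to 9869, 6 of 7 fell over intact males too, beside 5.50%, and both comparisons share the intact male arrays. PI16, 1 of the 6 in each comparison, passed the filter through intact males, at 723 ± 85.1. It averaged 91.9 ± 9.83 in castrated males and 71.8 ± 7.4 in females. Neutrophil markers, 5 of 7 with a probe set, summed to 415 to 440 in castrated and 401 to 1266 in intact males, and S100A9 rose by 0.46 (SE 0.09, limma adjusted p = 0.046), the 1 called of 3 tested. Adipocyte markers, 6 of 8 with a probe set, overlapped, at 1238 to 2890 in castrated and 677 to 4977 in intact males, with 0 of 5 tested passing (2 at an unadjusted p under 0.05). Of 5 tested endothelial markers 0 passed (0 at an unadjusted p under 0.05). The part of these cells in the NAMPT difference was not tested.

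The genes with the pattern most like each member were listed by Pearson correlation over all 15 arrays, as a description. For the brighter NAMPT probe set they were CDC16 (0.935), a subunit of the anaphase-promoting complex, RABL3 (0.903), CAMKMT (0.893), CSE1L (0.886), which exports importin alpha from the nucleus, and NAA15 (0.879). The lowest were ISLR (-0.911), KDELR1 (-0.905), a receptor that returns proteins to the endoplasmic reticulum, and PARP1 (-0.902), itself a user of NAD. ISLR was dim in buffalo, at 57.5 ± 2.76, and in castrated males, at 66.1 ± 1.76. CDC16 averaged 659 ± 22.3 in buffalo, 559 ± 53.5 in yak, 527 ± 40.4 in females, 567 ± 39.2 in castrated males and 381 ± 26.6 in intact males. It thus had its highest mean in buffalo and its lowest in intact males, as the brighter NAMPT probe set did, a likeness for which it was picked. Over the 9 cattle arrays the highest were PGAM5 (0.985), a mitochondrial phosphatase, RWDD4 (0.960), ZMAT5 (0.956), LRRC69 (0.954) and UXS1 (0.953). Across all other tested probe sets the median absolute correlation with this NAMPT probe set was 0.434 there, so high values were common.

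The dimmer NAMPT probe set had other neighbours over 15 arrays, led by ARL14EP (0.925), UQCC4 (0.919) and TRIM2 (0.915). TRIM2 was dim in buffalo, at 43.4 ± 11.3, and in intact males, at 58.2 ± 11.1. It averaged 154 ± 41.5 in yak, 89.7 ± 8.31 in females and 154 ± 14.3 in castrated males. RWDD4 (0.939) was among the 5 highest for both NAMPT probe sets over the cattle arrays, with BNIP3 (0.958), a mitophagy receptor, second for the dimmer one.

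For NMRK2 the nearest over 15 arrays were BPHL (0.964), a hydrolase, PLN (0.964), or phospholamban, the inhibitor of the slow-fibre calcium pump, RDX (0.955), WARS1 (0.942), a tRNA synthetase, and ITGB1BP2 (0.939). All 5 had their lowest group mean in yak. They were picked for likeness to NMRK2, which was far lower in yak, so nothing is read from this. PLN averaged 3765 ± 735 in buffalo, 1466 ± 209 in yak, 3321 ± 168 in females, 3165 ± 357 in castrated males and 3251 ± 386 in intact males. At the other end stood POC1A (-0.979), MRPL57 (-0.975) and GPA33 (-0.957). POC1A averaged 160 ± 7.57 in yak and 62.6 to 73.2 as the mean of each other group. GPA33 averaged 320 ± 48.3 in yak and 45.8 to 74.2 as the mean of each other group. Both passed the filter through yak and were near or under its level elsewhere. BPHL in turn was dim in yak, at 51 ± 3.71. The correlations of these genes thus rest in part on dim signal. Within the 9 cattle arrays, where yak play no part, the 5 highest were ALDH1A1 (0.892), ZBTB5 (0.887), ITGB1BP2 (0.882), PKP4 (0.877) and KCTD15 (0.861). ITGB1BP2 appeared in both sets of 5, but the 9 arrays are among the 15. Across all other tested probe sets the median absolute correlation with NMRK2 was 0.327 over 15 arrays and 0.292 over the 9.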

How the data were processed

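The deposited table holds 1 intensity per probe set and array on a linear scale, as the authors summarised it. The sources used here do not name the software or the normalisation behind it. Per the labels' protocols, RNA was extracted with Trizol and biotin-labelled cRNA was made from 6 µg. Gene symbols came from the platform annotation, matched by Entrez identifier to the ARS-UCD2.0 gene table, and 0 symbols changed.

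The 112 control probe sets were set aside, 16 was added to each intensity before log2, and the 14409 of 24016 probe sets with a mean above the 40th percentile (6.42) were tested. The limma package (version 3.58.1, R 4.3.3) fitted linear models, with empirical Bayes moderation and an intensity trend, on the 9 cattle arrays for cattle comparisons and on all 15 for species comparisons, where the cattle level was the average over the 3 cattle groups. P-values are two-sided, adjusted by the method of Benjamini and Hochberg over all tested probe sets of a comparison, with a threshold of 0.05. The steps were tested on simulated data. For genes with several probe sets the brightest was used. NAMPT and NMRK2 were left out of every list count.

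The 2 genes, the gene lists and the comparisons were chosen with earlier results of these data known. From each list, genes past the threshold were named, up to 4 per comparison, with all tested NAD salvage, synthesis, disposal, phosphorylation and transport genes. For likeness, the 5 highest and 3 lowest correlated genes were taken. The alternatives were other added values, quantile normalisation, other filters, no trend, a replicate block, averaged probe sets, cattle without intact males and leaving out each array. A planned search of promoter motifs was not run, as no promoter sequence was used here.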

Additional observations from a re-analysis of the deposited data

How the results depend on the processing

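Of 202 fold changes of NAMPT and NMRK2 under an alternative, 193 moved by less than the spread within groups, among them all of NMRK2. The others concern NAMPT. Its other probe set, an alternative chosen after seeing the data, gave 1.01 for castrated over intact males, -0.21 for females over castrated males and 0.66 for yak over cattle, and reversed the sign in buffalo, to -1.11 over cattle and -1.77 over yak, with buffalo at dim signal. Averaging both probe sets also reversed it, to -0.13 and -0.59. With castrated males and females as the cattle, NAMPT stood at -0.14 in yak, a reversed sign, and 0.46 in buffalo, and the buffalo count of NAD genes was 7. The cause was not tested, beyond what the low intact males show. Leaving out 1 array kept the NAMPT value within 1.35 to 1.62 for castrated and 0.68 to 1.09 for female over intact males.

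NAD genes passing among the cattle groups were 1 for castrated over intact males without the trend, and 1 for females over intact males after quantile normalisation, at the 60th percentile filter or with the replicate block. Leaving out 1 array gave 0 to 2 and 0 to 3 in those comparisons, 4 to 9 in yak, 6 to 14 in buffalo and 5 to 9 in buffalo over yak. Over all lists, 8, 14, 45, 64 and 49 of 121 genes passed in these 5 comparisons, and 4 to 20, 5 to 31, 29 to 57, 46 to 70 and 35 to 43 with 1 array left out. Females over castrated males gave 0 of 121 (12 at an unadjusted p under 0.05).

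Replicate numbers are shared by the groups, but correlations of same-numbered arrays ran from -0.326 to 0.1451, so the arrays share only a number. With the replicate block the NAMPT and NMRK2 values were the same (1.44 and 0.18 for castrated over intact males), and 6 and 15 list genes passed for castrated and female over intact males, against 8 and 14. With no detection calls, no level can be called background.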
